A study of Mus musculus with 11 samples.

Results

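Mice in which the interleukin-12 receptor subunit Il12rb2 was deleted from neural cells, and which had experimental autoimmune encephalomyelitis (EAE), were compared with all naive mice of the series. The comparison holds the 4 libraries whose titles name NestinCre Il12rb2fl EAE and the 3 libraries whose titles name naive, so 7 of the 11 libraries of the series. Each library is a single-nucleus RNA-seq profile of Hoechst-sorted nuclei from cerebellum and brainstem of 1 hemisphere and from cervical spinal cord of male mice aged 8 to 12 weeks. The NestinCre EAE mice carried 1 NestinCre allele and 2 floxed Il12rb2 alleles (NestinCre/+ Il12rb2 fl/fl), were immunized with 200 µg MOG35-55 peptide in complete Freund's adjuvant, received 50 to 100 ng pertussis toxin and were taken at day 10. The naive mice were not immunized. Of their 3 libraries 2 were Il12rb2 fl/fl without Cre (fl naive, replicates 2 and 3) and 1 was NestinCre/+ Il12rb2 fl/fl (NestinCre naive, replicate 2). Floxed Il12rb2 was therefore common to all 7 libraries, whereas NestinCre was carried by all 4 EAE libraries and by 1 of the 3 naive libraries, so genotype is partly mixed into the comparison. Nestin-Cre acts in neural precursors, and its descendants include neurons, oligodendrocytes and astrocytes but not microglia or blood leukocytes. Wherever values are listed in order, NestinCre EAE replicates 1 to 4 come first and fl naive replicates 2 and 3 and NestinCre naive replicate 2 follow.

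Sequencing run is partly confounded with disease. NestinCre EAE replicates 1 to 3 were sequenced in run 1, NestinCre EAE replicate 4 and fl naive replicate 2 in run 2, and fl naive replicate 3 and NestinCre naive replicate 2 in run 3. The pair of run 2 is the only contrast of both states within 1 run, and its 2 libraries differ in Cre as well. It is given beside the main values as a difference of 1 library from 1 library, with no test. Run 3 holds only naive libraries. Fits with run as a term, over 7 or all 11 libraries, therefore take their naive side from fl naive replicate 2 alone. The 7 libraries held 40761007 to 86063464 unique molecular identifiers (UMIs, counts of captured transcripts) and 119992 barcodes, of which 100448 nuclei were kept. Median depth was 1829 to 2911 UMIs per kept nucleus, and no pair of libraries shared more than 0.685% of the smaller library's barcodes. Nuclei were clustered and clusters were named from marker genes, so each class name below means nuclei like that type. In each of the 20 classes the summed level of its own markers was above that in all other classes, and the ratio was smallest in excitatory neurons (398 against 153 counts per 1000000 UMIs, CPM), unipolar brush cells (5761 against 1678 CPM) and inhibitory neurons (578 against 153 CPM). Of the Bergmann glia markers Npy1r was at 0. Of the kept nuclei in these libraries 4.02% to 7.71% stayed unnamed.

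EAE is an autoimmune disease of the central nervous system in which T cells primed against myelin enter the tissue with monocytes and neutrophils. T and natural killer cells release interferon-γ, which induces the MHC, guanylate-binding protein and immunity-related GTPase genes in most cell types, and type I interferons induce an antiviral set of genes. Interleukin-12 is a cytokine of myeloid cells that acts on T and natural killer cells through a receptor made of IL12RB1 and IL12RB2. The comparison asks how each cell class at the onset of EAE differed from the non-immunized tissue when neural cells carried the deletion.

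The deleted receptor gene and the transgene were looked at first. Il12rb2 (chr6:67268302-67353172 of GRCm39, minus strand) was counted over the whole gene, and such a count does not separate transcripts that lack the floxed exon. Over all kept nuclei Il12rb2 gave 709, 583, 512 and 575 UMIs in the NestinCre EAE libraries and 662, 713 and 682 UMIs in the naive libraries, that is 13.5 ± 3.8 (SD, n = 4) and 13.7 ± 1.23 (SD, n = 3) CPM. The level in the library with Cre and without EAE (13.6 CPM) lay between those of the fl naive libraries (12.5 and 14.99 CPM), so the counts do not show the deletion. In neurons Il12rb2 lay at 15.3 ± 4.31 CPM in NestinCre EAE and 15.6 ± 0.989 CPM in naive nuclei. Nes, whose regulatory sequence drives the Cre, moved with the genotype labels, with 31, 43, 31 and 65 UMIs in the NestinCre EAE libraries, 1 and 2 UMIs in the fl naive libraries and 58 UMIs in the NestinCre naive library. Gh, the growth hormone gene, gave 64, 83, 47 and 187 UMIs in NestinCre EAE and 20, 0 and 27 UMIs in naive libraries, so that fl naive replicate 2, without Cre, also had UMIs of the gene.

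Il12rb1, the partner subunit that IL-12 and IL-23 receptors share, rose in mature oligodendrocytes. It lay at 58.1, 29.1, 24.1 and 53.4 CPM in the NestinCre EAE libraries and 5.95, 8.41 and 4.36 CPM in the naive libraries, and the groups did not overlap (log2 fold change 2.77 ± 0.34, adjusted p = 0.000882; ± after a log2 fold change is the SE throughout). The run 2 pair differed by 3.06 on the log2 scale, and the call was kept with run as a term over all 11 libraries (2.99 ± 0.53, adjusted p = 0.00515). Other neural classes held far less of it. Granule cells were at 0.938 ± 0.23 (SD, n = 4) and 0.405 ± 0.255 CPM (SD, n = 3), where the difference did not pass the test (adjusted p = 0.225), and oligodendrocyte progenitors had 2 UMIs in each group. Microglia held 19, 2, 3 and 16 UMIs in NestinCre EAE and 0 in all 3 naive libraries, at least 5.5-fold higher, with counts too low for the test. The T or NK cells, in which the IL-12 receptor is known to act, held 3, 1, 6 and 4 UMIs in NestinCre EAE (41.9 ± 25.6 CPM, SD, n = 4) and none in the few naive nuclei. A list of 15 genes held the interleukin-12 family with its receptors, interferon-γ and interferon receptors. Of these 9 were tested in mature oligodendrocytes, and Il12rb1 was the only one called. In this class 3.1% of all tested genes rose and 1.58% fell. The median log2 fold change of these 9 listed genes was 0.14, against -0.004 over all genes tested there.

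Blood leukocytes made up a larger part of the nuclei in NestinCre EAE. Infiltrating phagocytes, recognised by Ccr2, Ly6c2 and Lyz2 among others, were 175, 109, 134 and 34 nuclei in the NestinCre EAE libraries and 7, 4 and 3 in the naive libraries. This is 1.48%, 0.74%, 1.15% and 0.183% of kept nuclei against 0.042%, 0.028% and 0.0237%, a mean of 0.887 ± 0.558% (SD, n = 4) against 0.0312 ± 0.00956% (SD, n = 3). T or NK cells were 54, 46, 85 and 20 nuclei against 3, 2 and 3, and neutrophils 173, 71, 72 and 24 against 5, 13 and 2. As shares of kept nuclei the groups did not overlap in any of these 3 classes. As shares of nuclei other than granule cells, neutrophils had an exact two-sided permutation p = 0.114, above the smallest the test can give. Replicate 4 was the lowest of the NestinCre EAE libraries in each, at 0.183%, 0.108% and 0.129% for phagocytes, T or NK cells and neutrophils. The interval for its neutrophils, 0.0829% to 0.192% (exact binomial, 95%, counting error only), overlapped that of fl naive replicate 3, 0.0485% to 0.156%. The neutrophil class was poorly supported there: the summed level of its 8 markers was 481.5 CPM in replicate 4, against 3134 to 5835 CPM in the other NestinCre EAE libraries. It was 0, 55.7 and 5105 CPM in the 5, 13 and 2 nuclei of fl naive replicates 2 and 3 and NestinCre naive replicate 2. In replicate 4 these nuclei held more of the phagocyte markers (936 CPM) and of the T or NK cell markers (615 CPM). An exact two-sided permutation test over the 35 ways to choose 4 of 7 libraries cannot go below p = 0.0571, which each of the 3 classes reached (0.163 after Benjamini-Hochberg adjustment over 20 classes), so no share can pass at 0.05 by this test. A quasi-likelihood fit to the nucleus counts gave log2 fold change 4.76, adjusted p = 0.00235 for phagocytes, log2 fold change 4.37, adjusted p = 0.00235 for T or NK cells and log2 fold change 3.84, adjusted p = 0.0107 for neutrophils.

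Newly formed oligodendrocytes differed in share by the nucleus count fit, while mature oligodendrocytes overlapped between the groups, at 13.1 ± 3.48% (SD, n = 4) in NestinCre EAE and 14.4 ± 5.37% (SD, n = 3) in naive nuclei (exact two-sided permutation p = 0.629). Newly formed oligodendrocytes, premyelinating cells marked by Enpp6 and Bcas1, were 2, 2, 5 and 6 nuclei in NestinCre EAE and 34, 14 and 20 in naive libraries, or 0.0169%, 0.0136%, 0.043% and 0.0323% against 0.204%, 0.098% and 0.158%. Every NestinCre EAE library lay below every naive library (exact two-sided permutation p = 0.0571; nucleus count fit, log2 fold change -2.50, adjusted p = 0.00235). Oligodendrocyte progenitors were at 0.632%, 0.57%, 0.567% and 0.722% against 0.485%, 0.448% and 0.449%, a difference that did not pass the fit (log2 fold change 0.43, adjusted p = 0.298) although the groups did not overlap. Leptomeningeal cells or fibroblasts were lower by the nucleus count fit, at 0.118%, 0.095%, 0.137% and 0.145% against 0.318%, 0.154% and 0.307% (log2 fold change -1.06, adjusted p = 0.0496). For this class the exact two-sided permutation p was 0.0571, and 0.114 with doublet clusters alone removed. Unipolar brush cells, excitatory interneurons of the cerebellum, did not pass the fit, at 0.219%, 0.251%, 0.163% and 0.189% against 0.312%, 0.35% and 0.252% (log2 fold change -0.57, adjusted p = 0.234). Microglia overlapped between the groups, at 1.9%, 1.26%, 2.08% and 2.35% against 2.05%, 1.08% and 1%. In the run 2 pair phagocytes were 0.183% in NestinCre EAE replicate 4 and 0.042% in fl naive replicate 2, newly formed oligodendrocytes 0.0323% and 0.204%, and leptomeningeal cells or fibroblasts 0.145% and 0.318%, the same directions as over all 7 libraries. A share also depends on the dissection, on the shares of all other classes and on the limits for keeping nuclei, and their part was not tested. The gene limit was 200 in run 1 and 500 in runs 2 and 3. Of 13446, 17303, 13120 and 22951 barcodes in NestinCre EAE, 13441, 17299, 13108 and 22903 passed the quality limits. In the naive libraries 20135, 16844 and 14825 of 20303, 17256 and 15613 passed. Neutrophil nuclei held a median of 0.394 of the median UMIs of their library.

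**Figure D1:**
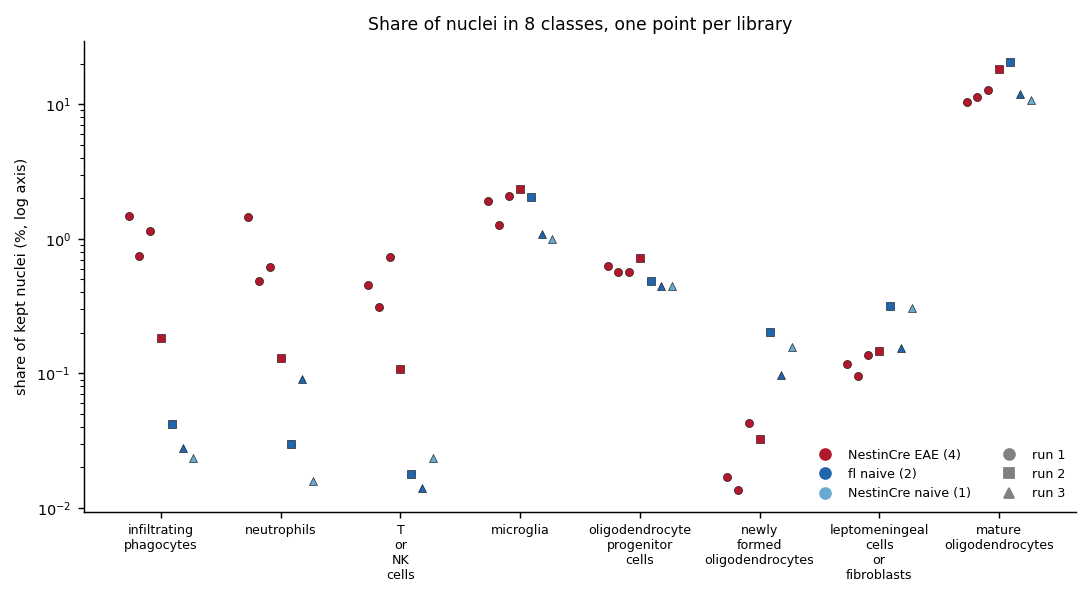
Share of kept nuclei in 8 cell classes (percent, log axis), 1 point per library; colour gives the group and symbol the sequencing run. In infiltrating phagocytes, neutrophils and T or NK cells all 4 NestinCre EAE points lie above the 3 naive points, in newly formed oligodendrocytes all 4 lie below them, and in microglia the groups overlap.

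Gene expression was compared within each class after UMIs were summed per library, and each level is relative to all UMIs of that class in the library. Of the 20 classes 14 had enough nuclei to be tested. Microglia had the most calls at an adjusted p under 0.05. Of 8480 genes 766 were higher (9.03%) and 428 lower (5.05%) in NestinCre EAE. Mature oligodendrocytes followed with 402 higher (3.1%) and 205 lower (1.58%) of 12958 genes, and granule cells with 264 higher (1.64%) and 34 lower (0.211%) of 16146 genes. Oligodendrocyte progenitors had 55 higher (0.982%) and 9 lower (0.161%) of 5603, molecular layer interneurons 54 higher (0.458%) and 13 lower (0.11%) of 11800, and astrocytes 39 higher (0.594%) and 5 lower (0.0761%) of 6569. Higher genes outnumbered lower genes in each of these 6 classes. Single libraries moved some of these totals. The oligodendrocyte count of 607 became 303, 326, 352 and 308 without NestinCre EAE replicate 1, NestinCre EAE replicate 2, NestinCre naive replicate 2 and fl naive replicate 3. The granule cell count of 298 became 185, 198, 101 and 86 without NestinCre EAE replicate 1, NestinCre EAE replicate 3, NestinCre naive replicate 2 and fl naive replicate 3, and 680 without fl naive replicate 2. Molecular layer interneurons went from 67 to 22, 31 and 30 without NestinCre EAE replicates 1 and 2 and fl naive replicate 3, and to 114 without fl naive replicate 2. Oligodendrocyte progenitors went from 64 to 39 without NestinCre EAE replicate 1. In microglia and astrocytes no single omission moved the count by over 1.5 times. In the run 2 pair, whose libraries are part of the fit, the sign of the difference was the same for 1187 of the 1194 microglia calls, 606 of the 607 oligodendrocyte calls and all 298 granule cell calls. Over all genes tested the pair had the sign of the fit for 75.7%, 72.9% and 62.1%.

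**Figure D2:**
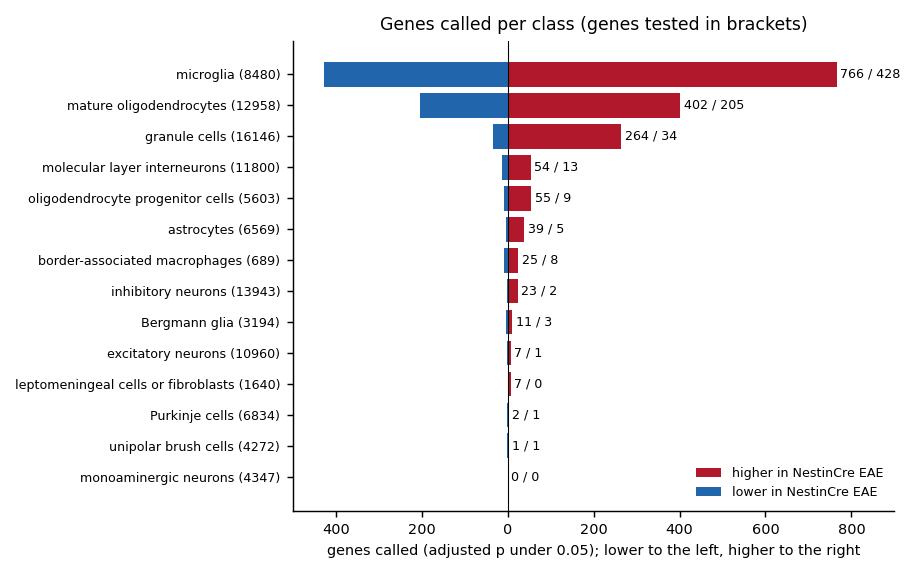
Number of genes called at an adjusted p under 0.05 in each of 14 cell classes; bars to the right are genes higher and bars to the left genes lower in NestinCre EAE, with both numbers printed and the genes tested in brackets. Microglia lead with 766 and 428 calls, and the bars to the right are longer than those to the left in mature oligodendrocytes (402 and 205) and granule cells (264 and 34).

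Some genes were called in many classes. In 4 or more classes 47 of 12240 genes tested in that many were higher and 1 was lower. Iigp1, an immunity-related GTPase, was higher in 10 classes. B2m, the light chain of MHC class I, and Nlrc5, the activator of MHC class I transcription, were higher in 9. The class I heavy chain gene H2-K1 and the complement gene C4b were higher in 8. Gbp7 (a guanylate-binding protein), Cd74 (the MHC class II chaperone), Gm4951 (an immunity-related GTPase) and Fkbp5 (a glucocorticoid-responsive chaperone) were higher in 7. Classes of fewer nuclei have fewer tested genes, and the counts include calls that were lost with run as a term or without 1 library.

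The sequences before the start sites of 12 of the 15 genes higher in 6 or more classes are described here, and the 3 others were searched too but are not shown. They were searched on both strands for GAAA followed after any 2 bases by GAAA, the core of an interferon-stimulated response element (ISRE), and TTCNNNGAA, the core of an interferon-γ-activated site. The window was 200 bases long and ended just before the start of the canonical GENCODE transcript of the gene (GRCm39). Only 3 of the 12 held either, and their windows are shown for the placement of these letters, in capitals, close to the start. Irgm2 is an immunity-related GTPase, Gbp7 a guanylate-binding protein and Ctss the protease that trims the MHC class II chaperone.
Irgm2, chr11:58090244-58090443, plus strand: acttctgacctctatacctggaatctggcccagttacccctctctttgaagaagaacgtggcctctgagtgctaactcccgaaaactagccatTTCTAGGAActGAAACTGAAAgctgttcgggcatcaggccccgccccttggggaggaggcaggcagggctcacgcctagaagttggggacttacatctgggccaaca
Gbp7, chr3:142235844-142236043, plus strand: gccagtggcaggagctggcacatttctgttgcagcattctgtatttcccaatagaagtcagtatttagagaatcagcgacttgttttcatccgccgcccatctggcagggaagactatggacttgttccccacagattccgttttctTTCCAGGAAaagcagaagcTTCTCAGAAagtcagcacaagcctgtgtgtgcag
Ctss, chr3:95433889-95434088, plus strand: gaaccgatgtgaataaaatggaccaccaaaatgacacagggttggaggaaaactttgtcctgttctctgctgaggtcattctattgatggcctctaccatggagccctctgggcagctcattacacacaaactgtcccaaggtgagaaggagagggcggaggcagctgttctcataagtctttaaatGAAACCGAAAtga
Irgm2 holds both motifs 2 bases apart, Gbp7 holds TTCNNNGAA at 2 places, and Ctss holds the ISRE core just before its start. The window of Irgm2 lies inside the annotated span of Igtp, another immunity-related GTPase on the same strand, so transcripts of the 2 genes may be counted for each other. The ISRE core occurred in 532 of 21770 such windows over all protein-coding genes (2.44%) and in 10 of the 47 genes higher in 4 or more classes, all of which had a window (21.3%). TTCNNNGAA occurred in 1337 (6.14%) and in 8 of the 47 (17.0%). These are matches of letters, and a window without them says nothing of the factor.

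**Figure D3:**
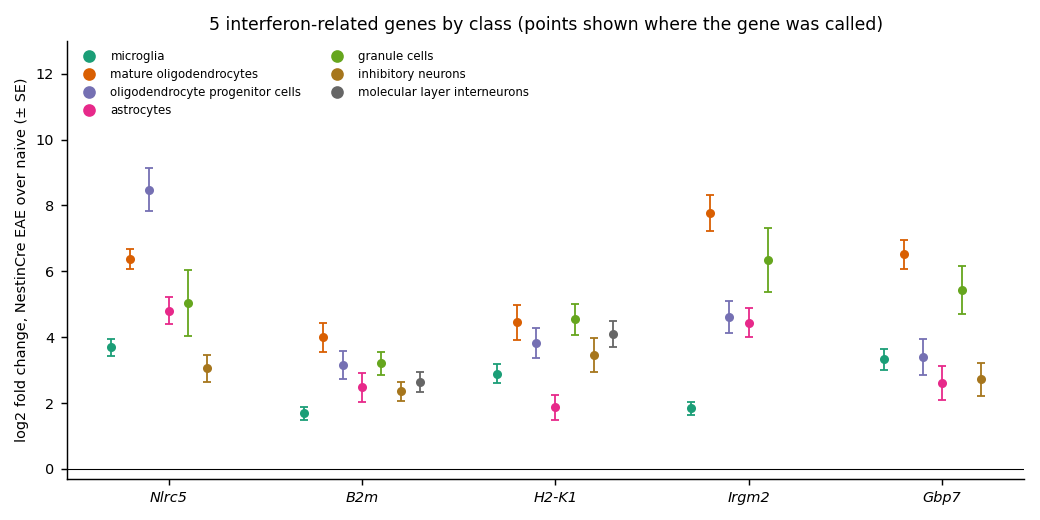
Log2 fold change of NestinCre EAE over naive (points, with SE as bars) for 5 interferon-responsive genes in 7 cell classes, shown where the gene was called. All points lie above 0; H2-K1 is between 1.87 in astrocytes (a call lost without NestinCre EAE replicate 4 (adjusted p = 0.158)) and 4.54 in granule cells, and Nlrc5 in oligodendrocyte progenitors had no UMI in any naive library, so its fitted value is no bound.

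Microglia, the resident macrophages of the tissue, had lower levels of homeostatic genes. Of the 16 genes of the homeostatic list, all tested, 11 fell, 0 rose and 5 were not called, where 5.05% of all tested genes fell. Of the 16 genes 2 were called with run as a term over 11 libraries. The median log2 fold change of the list was -0.82, against -0.004 over all genes tested. Siglech, a sialic acid binding lectin, lay at 332, 564, 595 and 697 CPM in the NestinCre EAE libraries and 1417, 1032 and 1211 CPM in the naive libraries (log2 fold change -1.14 ± 0.19, adjusted p = 0.000282). Cx3cr1, the fractalkine receptor, lay at 471, 427, 777 and 616 against 1063, 1064 and 1192 CPM (log2 fold change -0.91 ± 0.17, adjusted p = 0.00095). For both genes every NestinCre EAE library lay below the lowest naive library. P2ry12, a purinergic receptor that guides microglial processes, was lower too, at 725 ± 38.6 (SD, n = 4) against 1122 ± 127 CPM (SD, n = 3; log2 fold change -0.60 ± 0.13, adjusted p = 0.00379), and Tgfbr1, a receptor of TGF-β, had a log2 fold change of -0.86 ± 0.17 (adjusted p = 0.0016). Tmem119, Gpr34, P2ry13, Selplg, Slc2a5, Sparc and Cst3 were the other genes called. Siglech, Cx3cr1, P2ry12, Tmem119, Gpr34 and P2ry13 are also among the markers that named the class.

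The largest falls in microglia, among genes that reached 10 CPM in a group, were outside that list. Adamts16, a secreted metalloprotease, lay at 1.45, 10.6, 12.7 and 10.0 CPM in the NestinCre EAE libraries and 210.2, 122 and 149 CPM in the naive libraries (log2 fold change -4.21 ± 0.35, adjusted p = 7.11e-08). Myo1d, an unconventional myosin, lay at 21.8, 21.1, 19.9 and 14.6 against 194, 125 and 127 CPM (log2 fold change -2.98 ± 0.26, adjusted p = 1.93e-07). In both genes the highest NestinCre EAE library was far below the lowest naive library, but a lack of overlap was a condition for naming them. The fl EAE means lay between, at 49.1 ± 11.9 and 98.8 ± 34.4 CPM (SD, n = 4). Myo18b, another myosin, had -3.19 ± 0.52 (adjusted p = 0.000216) and D7Ertd443e -3.35 ± 0.58 (adjusted p = 0.000405). D7Ertd443e is also among the leading genes of several mature oligodendrocyte clusters. The 10 oligodendrocyte markers summed to 542 to 1217 CPM in NestinCre EAE and 1055 to 1649 CPM in naive microglia. Of these markers 1 of 8 tested was called lower, where 5.05% of all tested genes fell, and their part was not tested.

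Interferon signalling and MHC genes rose in microglia. The groups lay partly in different clusters of this class: a cluster with Iigp1 and Gm4951 among its leading genes held 333 NestinCre EAE and 37 naive nuclei, another 252 and 69, and the remaining clusters 311 and 280 and 192 and 238. In the list of interferon regulators, such as IRF genes and Nlrc5, 9 of 11 tested genes rose, in the antiviral list 17 of 19, among guanylate-binding proteins 8 of 8, among immunity-related GTPases 5 of 5 and in the MHC class I list 14 of 15. Of all genes tested in microglia 9.03% rose and 5.05% fell, and no tested member of these lists fell. In the same order, 7, 11, 7, 5 and 9 of their genes were called with run as a term over 11 libraries. Nlrc5 lay at 544, 549, 575 and 522 CPM in the NestinCre EAE libraries and 36.4, 76.9 and 19 CPM in the naive libraries (log2 fold change 3.69 ± 0.25, adjusted p = 5.74e-09). The class I heavy chain gene H2-K1 lay at 320.4, 237, 358 and 585 against 58.6, 57.7 and 38 CPM (log2 fold change 2.89 ± 0.29, adjusted p = 1.03e-06). In both genes the lowest NestinCre EAE library was above the highest naive library by a wide margin. Iigp1 reached 1891, 1730, 1676 and 1029 CPM with 0, 2 and 1 UMIs in the naive libraries (ratio 552, 95% counting interval 189 to 2680), and Gm4951 lay at 1082, 1158, 904 and 655 against 18.2, 51.3 and 22.2 CPM (log2 fold change 5.05 ± 0.29, adjusted p = 9.91e-10). Both belong to a family of similar genes that counting may not separate. Gbp5, which acts in inflammasome activation, rose by 5.28 ± 0.35 on the log2 scale (adjusted p = 4.93e-09).

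The MHC class II chains, which present antigen to CD4 T cells, were nearly absent from naive microglia. In the list of class II presentation genes 5 of 7 tested genes rose, where 9.03% of all tested genes rose. The median log2 fold change of the list was 5.14, or 4.83 with H2-Eb1, which had no UMI in naive microglia, at its lower limit. Ciita, the master regulator of class II transcription, lay at 129, 111, 114 and 167 CPM in the NestinCre EAE libraries and 0, 3.21 and 9.51 CPM in the naive libraries (log2 fold change 5.14 ± 0.45, adjusted p = 1.87e-07). H2-Aa had 36, 10, 26 and 104 UMIs against 0, 1 and 0 (ratio 72.7, 95% counting interval 12.9 to 2886). H2-Eb1 had 47, 13, 34 and 113 UMIs and none in the naive libraries, at least 28.5-fold higher. Cd74, chosen for naming after its values were seen, had 106, 55, 99 and 282 UMIs against 0, 0 and 1 (ratio 224, 95% counting interval 40.0 to 8853). Each of these genes was above all naive libraries in all 4 NestinCre EAE libraries, and replicate 4 was the highest for H2-Aa and H2-Eb1. Ctss, already expressed in naive microglia, rose as well, with 524 ± 88.6 CPM in naive and 1139 ± 80.0 CPM in NestinCre EAE libraries (log2 fold change 1.15 ± 0.15, adjusted p = 1.74e-05).

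Chemokine genes and several effector genes of activated myeloid cells rose as well. Among leukocyte-attracting chemokines 7 of 8 tested genes rose. Cxcl10, which attracts CXCR3-bearing T cells, had 101, 61, 329 and 195 UMIs and none in naive microglia, at least 94.4-fold higher, and replicate 3 stood above the other 3. Cxcl9, of the same receptor, had 23, 15, 104 and 76 UMIs and none (at least 30.0-fold). Ccl12, a monocyte attractant, lay at 128, 295, 257 and 204 against 8.09, 35.3 and 25.4 CPM (log2 fold change 3.39 ± 0.37, adjusted p = 2.6e-06). Of 7 tested inflammatory myeloid effectors 5 rose. Acod1, which makes itaconate, had 42, 7, 93 and 48 UMIs and none in naive libraries (at least 26.1-fold), and Xdh, which makes urate, lay at 239, 106, 86.8 and 40.1 CPM in the NestinCre EAE libraries and 0, 3.21 and 12.7 CPM in the naive libraries (log2 fold change 4.66 ± 0.79, adjusted p = 0.000347). Aoah, which inactivates endotoxin, rose by 4.80 ± 0.65 (adjusted p = 3.59e-05). Of 12 tested disease-associated microglia genes 3 rose, namely Axl, Clec7a and Lgals3, where 9.03% of all tested genes rose, and with run as a term over 11 libraries edgeR called none of the list. Axl, a receptor for apoptotic cells, lay at 69.6, 29, 148 and 82.1 against 22.2, 12.8 and 3.17 CPM (log2 fold change 2.59 ± 0.51, adjusted p = 0.00141). The call of Clec7a (2.20 ± 0.62, adjusted p = 0.0195) was lost without NestinCre naive replicate 2, fl naive replicate 2 or fl naive replicate 3 (adjusted p = 0.0595 to 0.115).

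Top2a, Mki67, Cenpe and Ttk are on no list and were chosen after their values were seen, and edgeR called them higher in microglia. Top2a, a topoisomerase of dividing cells, lay at 120.3, 97.6, 101 and 180.5 CPM in the NestinCre EAE libraries and 0, 0 and 12.7 CPM in the naive libraries (log2 fold change 5.10 ± 0.54, adjusted p = 1.99e-06). Mki67 had 28, 13, 19 and 46 UMIs against 0, 0 and 2 (ratio 21.9, 95% counting interval 5.91 to 183), Cenpe, a mitotic motor, 30, 19, 14 and 70 UMIs and none in naive microglia (at least 18.3-fold), and Ttk, a mitotic kinase, 15, 5, 15 and 28 UMIs and none (at least 8.67-fold). All 4 genes were above every naive library in every NestinCre EAE library. The fl EAE libraries had 36.2 ± 22.1 CPM of Top2a (SD, n = 4).

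Microglial nuclei of NestinCre EAE also held more of the markers of infiltrating phagocytes. Of these 10 markers 7 were tested in microglia and all 7 were called higher, where 9.03% of all tested genes rose. Their summed level was 180.5 to 489 CPM in NestinCre EAE and 15.8 to 32.1 CPM in naive microglia, against 2923 to 5396 CPM in the phagocyte class of the NestinCre EAE libraries. Ly6c2, Plac8 and S100a4 had no UMI in naive microglia. The part of infiltrating cells in the other microglial results was not tested. Mitochondrial genes moved with the groups too: 4 of 10 were called lower in microglia, where 5.05% of all tested genes fell. Each of the 4 calls was lost in some single omissions, mt-Atp6 in 5, mt-Co3 and mt-Nd2 in 4 each and mt-Nd3 in 1. Of these mt-Co3 lay at 352, 688, 490.0 and 329 against 631, 795 and 830.3 CPM (-0.68 ± 0.20, adjusted p = 0.0289), a call that was lost without NestinCre EAE replicate 1, NestinCre EAE replicate 4, NestinCre naive replicate 2 or fl naive replicate 3 (adjusted p = 0.068 to 0.16). The part of mitochondrial genes was not tested. The run 2 pair differed by 3.83 for Nlrc5, -1.02 for Siglech and -3.69 for Myo1d on the log2 scale. For Myo1d the sign of the pair was a condition for naming the gene. With run as a term over 11 libraries 291 of the 1194 calls were called again, among 307 calls in all.

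**Figure D4:**
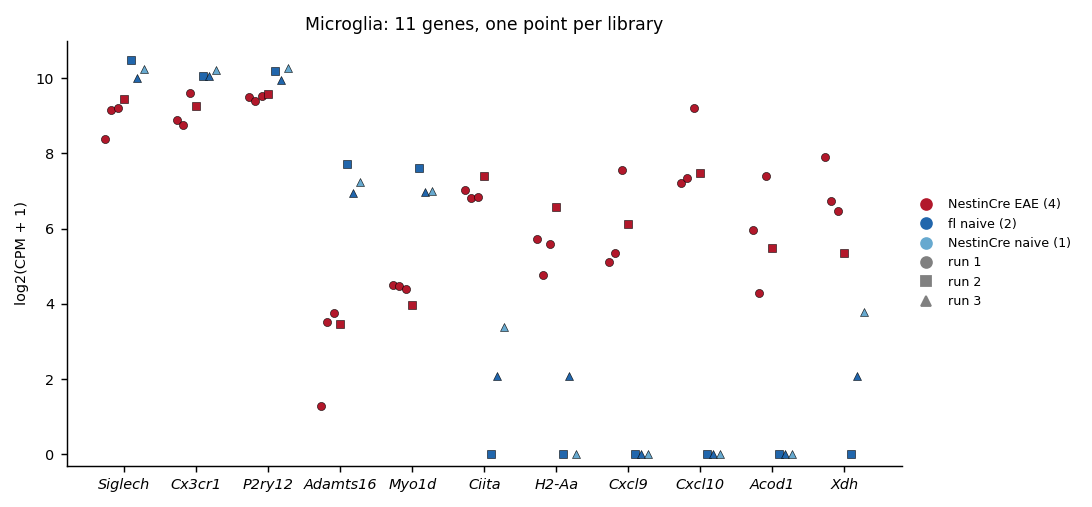
Levels of 11 genes in microglia as log2(CPM + 1), 1 point per library; colour gives the group and symbol the sequencing run. The 4 NestinCre EAE points of Siglech, Cx3cr1, P2ry12, Adamts16 and Myo1d lie below the 3 naive points, and those of the other 6 genes, from Ciita to Xdh, lie above them.

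Mature oligodendrocytes, the myelinating cells, had higher levels of genes of the same interferon and MHC lists. A cluster of this class, with Iigp1, Irgm2 and C4b among its leading genes, held 1318 NestinCre EAE and 5 naive nuclei, while the other clusters held 1497 to 2568 NestinCre EAE and 1692 to 2735 naive nuclei. All 14 tested genes of the MHC class I list rose, with a median log2 fold change of 4.29 against -0.004 over all genes tested there. Of all genes tested in this class 3.1% rose. Guanylate-binding proteins (7 of 8 tested), immunity-related GTPases (5 of 5), interferon regulators (10 of 11) and antiviral genes (17 of 17) rose, and no tested member of these lists fell. In the fit with run as a term over 11 libraries 13 genes of the MHC class I list and 4, 5, 8 and 13 of the other lists, in that order, were called. Nlrc5 lay at 169.5, 91.4, 146 and 177 CPM in the NestinCre EAE libraries and 1.98, 1.64 and 1.6 CPM in the naive libraries (log2 fold change 6.37 ± 0.31, adjusted p = 2.14e-06), and Irgm2 at 142, 68.3, 151 and 238 against 0.661, 0.467 and 0.917 CPM (log2 fold change 7.76 ± 0.54, adjusted p = 1.2e-05). In both genes replicate 2 was the lowest NestinCre EAE library and was still far above the naive libraries. H2-K1 lay at 121, 55, 109 and 303 against 7.53, 7.01 and 5.96 CPM (log2 fold change 4.45 ± 0.53, adjusted p = 0.000785), with replicate 4 the highest. Iigp1 had 514, 171, 307 and 1498 UMIs against 0, 2 and 0 (ratio 1151, 95% counting interval 318 to 9513). F830016B08Rik, a related GTPase gene, had 60, 11, 39 and 250 UMIs and none in naive libraries (at least 111-fold), and Parp10, an ADP-ribosyltransferase, 59, 14, 44 and 93 and none (at least 64.7-fold). C4b, of the classical complement pathway, lay at 322, 176, 231 and 303 against 10.6, 30.6 and 11.5 CPM (log2 fold change 3.97 ± 0.34, adjusted p = 6.22e-05), and Serpina3n, a protease inhibitor known from reactive glia, at 49.8, 29.7, 16.2 and 15.9 against 1.19, 3.97 and 2.52 CPM (log2 fold change 3.55 ± 0.51, adjusted p = 0.00241).

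Glucocorticoid-responsive genes rose in the same cells. Of the 19 genes of that list, all tested, 15 rose and 0 fell, where 3.1% of all tested genes rose and 1.58% fell. The median log2 fold change of the list was 2.08. Sgk1, a kinase induced by glucocorticoids, lay at 738, 785, 349.9 and 665 CPM in the NestinCre EAE libraries and 23.1, 95.3 and 130.2 CPM in the naive libraries (log2 fold change 3.00 ± 0.47, adjusted p = 0.00391). Fkbp5, which restrains the glucocorticoid receptor, lay at 329.6, 239, 52.5 and 233 against 10.3, 36 and 28.6 CPM (log2 fold change 3.19 ± 0.54, adjusted p = 0.0069), and replicate 3 was the lowest of the 4 for both genes. Zbtb16, a transcription factor gene, lay at 839, 471, 145 and 684 against 51.4, 92.3 and 214 CPM and overlapped between the groups (log2 fold change 2.21 ± 0.56, adjusted p = 0.044), and its call was lost without NestinCre EAE replicate 1, NestinCre EAE replicate 2, NestinCre EAE replicate 4, fl naive replicate 2 or fl naive replicate 3 (adjusted p = 0.0798 to 0.152). With run as a term 11 of the 19 were called. The fl EAE libraries, which carry no Cre, had 440.2 ± 133 CPM of Sgk1 and 118 ± 43.5 CPM of Fkbp5 (SD, n = 4), and neither gene passed the test between the genotypes in EAE (Sgk1, log2 fold change 0.53 ± 0.24, adjusted p = 0.452; Fkbp5, log2 fold change 0.88 ± 0.42, adjusted p = 0.47). The list also rose in part in oligodendrocyte progenitors (5 of 8 tested genes), granule cells (4 of 19), astrocytes (4 of 13) and microglia (3 of 10), where 0.982%, 1.64%, 0.594% and 9.03% of all tested genes rose. There 4, 0, 4 and 2 genes of the list were called with run as a term over 11 libraries. In granule cells the call of Fkbp5 was lost without NestinCre EAE replicate 1, NestinCre EAE replicate 2, NestinCre naive replicate 2 or fl naive replicate 3 (adjusted p = 0.0507 to 0.131) and that of Zbtb16 without NestinCre EAE replicate 1, NestinCre EAE replicate 2, NestinCre naive replicate 2 or fl naive replicate 3 (adjusted p = 0.0539 to 0.122), and in microglia that of Tsc22d3, a leucine zipper protein, without NestinCre EAE replicate 1 or fl naive replicate 2 (adjusted p = 0.0564 to 0.143).

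Of the 20 genes of myelin proteins and lipids, all tested, Mobp and Cldn11 rose, Opalin fell and 17 were not called, where 3.1% of all tested genes rose and 1.58% fell, and the median log2 fold change was -0.21. Opalin, a marker of mature oligodendrocytes, lay at 129.7, 146, 223 and 221 CPM in the NestinCre EAE libraries and 487, 352 and 352 CPM in the naive libraries (log2 fold change -1.12 ± 0.21, adjusted p = 0.0101), with all 4 NestinCre EAE libraries below the lowest naive library. Mobp lay at 2846, 2561, 2114 and 2295 against 1423, 1605 and 1647 CPM (log2 fold change 0.69 ± 0.14, adjusted p = 0.0183), a call that was lost without NestinCre EAE replicate 1, NestinCre EAE replicate 2 or fl naive replicate 3 (adjusted p = 0.0504 to 0.056). Cldn11, of the tight junctions of myelin, had 0.65 ± 0.14 (adjusted p = 0.0228), lost without NestinCre EAE replicate 1 or fl naive replicate 3 (adjusted p = 0.058 to 0.0635). These 3 genes are also among the markers that named the class. Of the 16 regulators of the oligodendrocyte lineage 15 were tested and 0 called by edgeR, a count that says little against those shares. Among the largest falls by the naming rule, which takes only genes without overlap, Ephb2, a receptor for ephrins, lay at 24.1, 13.3, 13.7 and 16.2 against 78.5, 47.2 and 52.3 CPM (log2 fold change -1.81 ± 0.24, adjusted p = 0.00169), and Rab7b, an endosomal GTPase, at 0.963, 2.21, 2.44 and 2.88 against 20.5, 6.07 and 7.79 CPM (log2 fold change -2.38 ± 0.47, adjusted p = 0.0158). The splicing factor genes Srsf2 and Srsf6, chosen after their values were seen, were higher by 0.68 ± 0.13 (adjusted p = 0.0124) and 0.64 ± 0.12 (adjusted p = 0.0116), and were called higher in 5 and 4 classes. The call of Srsf2 was lost without NestinCre naive replicate 2 or fl naive replicate 3 (adjusted p = 0.0575 to 0.0702) and that of Srsf6 without NestinCre naive replicate 2 or fl naive replicate 3 (adjusted p = 0.0531 to 0.0604).

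UMIs of MHC class II genes were also more frequent in mature oligodendrocyte nuclei of NestinCre EAE, at low levels. H2-Aa had 64, 43, 68 and 115 UMIs against 1, 0 and 1 (ratio 134, 95% counting interval 36.8 to 1113), and Cd74, chosen after its values were seen, lay at 36.3, 38.6, 41.2 and 34.5 against 0.132, 1.17 and 1.15 CPM (log2 fold change 5.73 ± 0.33, adjusted p = 5.29e-06). The level of H2-Aa in NestinCre EAE was 15.8 ± 1.92 CPM in granule cells, 17.3 ± 3.85 CPM in mature oligodendrocytes, 13.6 ± 4.95 CPM in oligodendrocyte progenitors and 13.8 ± 4.64 CPM in astrocytes (SD, n = 4). It was lower in molecular layer interneurons (8.94 ± 2.02 CPM), excitatory neurons (3.79 ± 1.01 CPM) and inhibitory neurons (2.82 ± 0.905 CPM), and higher in microglia (55.1 ± 28.7 CPM), differences between classes that were not tested. CPM is relative to all UMIs of a class, and classes differ in UMIs per nucleus. Median UMIs relative to those of the library were 0.539 to 1.75 in granule cell clusters and 1.89 to 6.70 in inhibitory neuron clusters. The part of UMIs per nucleus in these levels was not tested. Markers of blood leukocytes moved with the groups here as well. The summed level of the 10 phagocyte markers in mature oligodendrocytes was 41.5 to 154 CPM in NestinCre EAE and 31.2 to 62.6 CPM in naive libraries, with Ccr2 and Ly6c2 at 0 in the naive libraries, and that of the 8 neutrophil markers 10.9 to 82.5 against 2.25 to 3.21 CPM. Of the 9 phagocyte markers tested 6 were called higher, where 3.1% of all tested genes rose. Free RNA in droplets can give UMIs of a gene in nuclei that do not express it. In NestinCre EAE the leukocyte gene Lyz2 lay at 31.3 ± 17.0 CPM in mature oligodendrocytes and 33.5 ± 17.7 CPM in granule cells, and Cd74 at 37.6 ± 2.9 and 36.0 ± 3.74 CPM (SD, n = 4). The part of free RNA and of leukocytes in the class II values was not tested. The run 2 pair differed by 6.16 for Nlrc5, 4.82 for Sgk1, 4.43 for Fkbp5 and -1.14 for Opalin on the log2 scale. With run as a term 304 of the 607 calls of this class were called again.

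**Figure D5:**
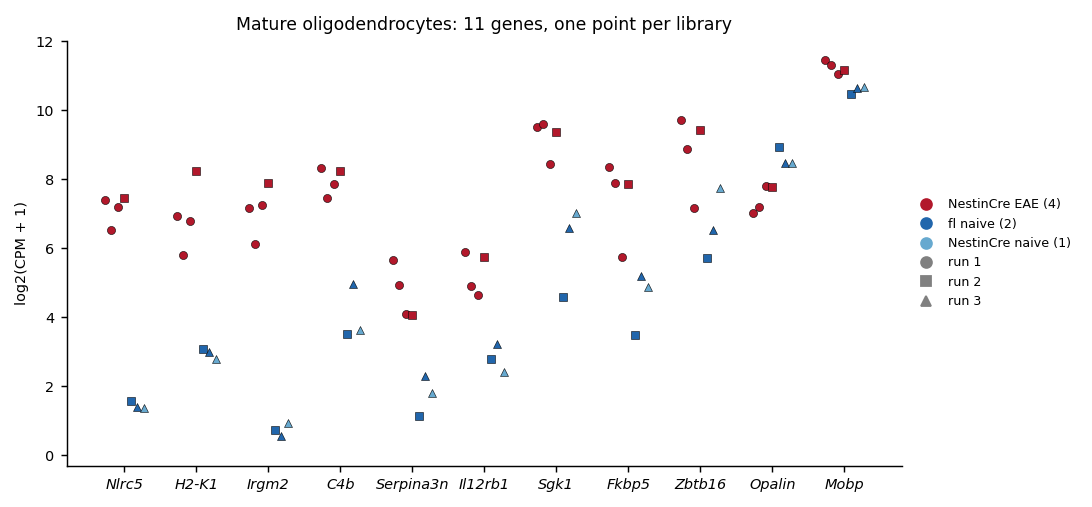
Levels of 11 genes in mature oligodendrocytes as log2(CPM + 1), 1 point per library; colour gives the group and symbol the sequencing run. For Nlrc5, H2-K1, Irgm2, C4b, Serpina3n, Il12rb1, Sgk1 and Fkbp5 the 4 NestinCre EAE points lie above the 3 naive points, for Mobp they lie above by less, for Zbtb16 the groups overlap, and for Opalin the NestinCre EAE points lie below.

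Granule cells, the small excitatory neurons of the cerebellum, made up most nuclei, with 7693 to 10517 per library. Their MHC and interferon genes rose, with wide spread among the NestinCre EAE libraries. A cluster of this class, with Irgm2, Nlrc5 and Cd274 among its leading genes, held 1086 NestinCre EAE and 10 naive nuclei, so nuclei of the groups lay partly in different clusters. In the MHC class I list 10 of 15 tested genes rose, among guanylate-binding proteins 8 of 9, among immunity-related GTPases 6 of 6, in the antiviral list 16 of 22 and among interferon regulators 4 of 13, and no tested member fell. Of all genes tested in this class 1.64% rose. B2m lay at 100.5, 37.9, 60.7 and 109 CPM in the NestinCre EAE libraries and 7.42, 8.88 and 9.46 CPM in the naive libraries (log2 fold change 3.21 ± 0.35, adjusted p = 0.00116). H2-K1 lay at 68.2, 20.7, 27.6 and 57.2 against 1.84, 1.87 and 2.07 CPM (log2 fold change 4.54 ± 0.46, adjusted p = 0.000827). Igtp lay at 51.7, 9.01, 18.3 and 23.1 against 0.223, 0.163 and 0.115 CPM (log2 fold change 7.33 ± 0.80, adjusted p = 0.00121), and Nlrc5 at 47.5, 3.76, 10.7 and 6.74 against 0.223, 0.57 and 0.766 CPM (log2 fold change 5.05 ± 1.00, adjusted p = 0.0314), a call that was lost without NestinCre EAE replicate 3, NestinCre naive replicate 2, fl naive replicate 2 or fl naive replicate 3 (adjusted p = 0.0544 to 0.146). Replicate 1 was the highest and replicate 2 the lowest for Igtp and Nlrc5.

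Genes that neurons do not usually express were among the granule cell calls. H2-Aa lay at 14.9, 14.3, 18.6 and 15.1 against 0.112, 0.122 and 0.192 CPM (log2 fold change 6.75 ± 0.25, adjusted p = 4.65e-07), and Cd74, chosen after its values were seen, at 35.3, 31.7, 40.8 and 36.2 against 0.614, 0.611 and 0.536 CPM (log2 fold change 5.98 ± 0.17, adjusted p = 5.7e-08). Chil3, a chitinase-like protein of neutrophils and alternatively activated macrophages, lay at 40.9, 8.56, 14.5 and 1.03 against 0, 0.122 and 0.153 CPM (log2 fold change 7.32 ± 1.40, adjusted p = 0.0267), lost without NestinCre EAE replicate 3, NestinCre naive replicate 2 or fl naive replicate 3 (adjusted p = 0.0607 to 0.131). Replicate 4, which had the fewest leukocyte nuclei, was the lowest for Chil3. The complement genes C1qb (2.27 ± 0.18, adjusted p = 0.00023) and C4b (3.86 ± 0.34, adjusted p = 0.000419) were called higher. In NestinCre EAE C1qb, which is known from myeloid cells, lay at 22.9 ± 5.28 CPM in granule cells, close to its 20.6 ± 7.65 CPM in astrocytes and 21.95 ± 4.07 CPM in mature oligodendrocytes and far below the 420.4 ± 56.6 CPM of microglia (SD, n = 4). Its mean was lower in molecular layer interneurons (11.9 CPM), oligodendrocyte progenitors (7.455 CPM), excitatory neurons (6.145 CPM), inhibitory neurons (5.87 CPM) and Purkinje cells (1.86 CPM). Differences between classes were not tested, and neither was the part of UMIs per nucleus in them. The summed phagocyte markers in granule cells were 41.5 to 158 CPM in NestinCre EAE and 22.7 to 30.4 CPM in naive libraries. Of these 6 of 10 were called higher, where 1.64% of all tested genes rose. The neutrophil markers summed to 14.0 to 78.7 against 3.41 to 6.24 CPM. The part of these cells and of their free RNA in these results was not tested.

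Of 25 tested synaptic and axonal genes 0 were called by edgeR, as were 0 of 15 immediate early genes and 0 of 17 genes of neurotrophin and neuregulin signalling, in a class where 1.64% of all tested genes were higher and 0.211% lower, so counts of 0 in lists of this size say little about them. The medians were -0.10, 0.98 and 0.03 against -0.02 over all genes tested. Among chemokines 8 of 13 tested genes rose, and among complement genes 5 of 10. Genes that fell numbered 34. Kcnip1, a modulator of A-type potassium channels, lay at 22.2, 26.1, 24.7 and 43.2 CPM in the NestinCre EAE libraries and 67, 51.4 and 53.1 CPM in the naive libraries (log2 fold change -0.94 ± 0.20, adjusted p = 0.0459), lost without NestinCre EAE replicate 1, NestinCre EAE replicate 2, NestinCre EAE replicate 3, NestinCre naive replicate 2, fl naive replicate 2 or fl naive replicate 3 (adjusted p = 0.0639 to 0.153). Adam19, a metalloprotease, had -0.90 ± 0.16 (adjusted p = 0.0217), lost without NestinCre EAE replicate 1, NestinCre EAE replicate 2, NestinCre EAE replicate 3 or fl naive replicate 3 (adjusted p = 0.059 to 0.0863). With run as a term over 11 libraries edgeR called 0 genes in granule cells, with 1818 at an unadjusted p under 0.05. The main fit had 2567 such genes, and DESeq2, without a run term, called 664. The interferon and MHC genes were therefore not called with run in the model over 11 libraries (for B2m, 3.36 ± 0.80, adjusted p = 0.212, and for H2-Aa, 6.96 ± 1.12, adjusted p = 0.113). In the run 2 pair these 2 genes differed by 3.78 and 4.67 on the log2 scale.

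Astrocytes and oligodendrocyte progenitors shared a short list of interferon genes. In astrocytes the immunity-related GTPases (4 of 4 tested), guanylate-binding proteins (2 of 2), interferon regulators (5 of 6) and MHC class I genes (4 of 6) rose, where 0.594% of all tested genes rose. Of these lists 2, 0, 1 and 1 genes were called with run as a term over 11 libraries. Nlrc5 lay at 108, 153, 136 and 140.2 CPM in the NestinCre EAE libraries and 8.96, 3.02 and 3.73 CPM in the naive libraries (log2 fold change 4.80 ± 0.41, adjusted p = 2.59e-10). Irgm2 lay at 83.3, 87.4, 121 and 194 against 13.4, 3.02 and 3.73 CPM (log2 fold change 4.44 ± 0.45, adjusted p = 1.37e-08), and C4b at 152, 245, 218 and 119 against 67.2, 9.07 and 11.2 CPM (log2 fold change 3.02 ± 0.39, adjusted p = 2.43e-06). For C4b the run 2 libraries were the closest, with a pair difference of 0.82. Gm4951 had 40, 30, 63 and 100 UMIs and none in naive astrocytes (at least 76.5-fold higher), and Iigp1 48, 18, 34 and 46 and none (at least 47.9-fold). Cd274, the checkpoint ligand PD-L1, had 6, 8, 15 and 15 UMIs against 0, 0 and 1 (ratio 43.3, 95% counting interval 7.38 to 1749). The metallothionein gene Mt1 lay at 1623, 1390, 755 and 1217 against 444, 592 and 553 CPM (log2 fold change 1.27 ± 0.20, adjusted p = 0.000126). Of 20 reactive astrocyte genes 6 were tested and Stat3 and Fkbp5 rose, and of 10 genes of glutamate uptake and glutamine synthesis 9 were tested and 0 called by edgeR. Of the 10 phagocyte markers 1 was tested in astrocytes and was not called, and their summed level was 41.8 to 186 CPM in NestinCre EAE and 21.2 to 89.6 CPM in naive libraries, which overlap. The neutrophil markers, of which none was tested, summed to 11.9 to 34.3 against 3.02 to 4.48 CPM without overlap. Cd74 lay at 25.1 ± 12.4 CPM in NestinCre EAE astrocytes (SD, n = 4) and had no UMI in naive ones, and the part of leukocyte RNA in these results was not tested. With run as a term 11 of the 44 calls of astrocytes and 25 of the 64 of oligodendrocyte progenitors were called again.

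In oligodendrocyte progenitors, the dividing precursors of the lineage, Nlrc5 had 49, 38, 34 and 73 UMIs in NestinCre EAE and none in naive libraries, at least 38.1-fold higher. H2-K1 lay at 169.7, 69.3, 125 and 262 CPM in the NestinCre EAE libraries and 8.95, 22.8 and 3.42 CPM in the naive libraries (log2 fold change 3.82 ± 0.46, adjusted p = 2.27e-06). Neither gene overlapped between the groups. Erbb4, a neuregulin receptor, was higher by 0.58 ± 0.13 (adjusted p = 0.0125), lost without NestinCre naive replicate 2 or fl naive replicate 2 (adjusted p = 0.0656 to 0.0757), and Tpm1, a tropomyosin, fell by 1.14 on the log2 scale (adjusted p = 0.000201) from 421, 331 and 349 to 147, 182, 125 and 181 CPM. Phagocyte markers summed to 17.0 to 106 CPM in NestinCre EAE and 7.61 to 23.96 CPM in naive progenitors, and none of them was tested.

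The other neurons had few calls. Inhibitory neurons had 23 higher (0.165%) and 2 lower (0.0143%) of 13943 genes, and excitatory neurons 8 of 10960 in either direction (0.073%). The 25 calls of inhibitory neurons became 13, 10, 8 and 9 without NestinCre EAE replicates 1 and 3, NestinCre naive replicate 2 and fl naive replicate 3, and 404 without fl naive replicate 2. B2m rose in inhibitory and in excitatory neurons, by 2.35 ± 0.29 (adjusted p = 0.00358) and 2.32 ± 0.32 (adjusted p = 0.00132). Neither was called with run as a term over 11 libraries (inhibitory, 2.52 ± 0.42, adjusted p = 0.0653; excitatory, 2.10 ± 0.59, adjusted p = 0.458), where 2 of the 25 and 0 of the 8 calls were called again. In inhibitory neurons B2m lay at 24.8, 10.9, 16.7 and 25.1 CPM in the NestinCre EAE libraries and 3.94, 4.38 and 3.59 CPM in the naive libraries, and in excitatory neurons at 20.3, 18.2, 23.2 and 30.9 against 5.97, 5.29 and 3.01 CPM. Phagocyte markers summed to 21.9 to 49.7 against 17.2 to 19.0 CPM in inhibitory neurons, with 1 of 3 tested called higher, and to 19.05 to 45.2 against 11.9 to 21.1 CPM in excitatory neurons, with 1 of 2. Their part was not tested. In molecular layer interneurons H2-K1 lay at 33.2, 20.4, 14.6 and 29.1 against 1.83, 1.94 and 0.389 CPM (log2 fold change 4.10 ± 0.39, adjusted p = 5.99e-05), and B2m at 63.8, 25.4, 40.7 and 60.5 against 7.07, 9.7 and 7.39 CPM (log2 fold change 2.64 ± 0.29, adjusted p = 0.000347). Of the 67 calls of this class 6 were called again with run as a term over 11 libraries. Grm3, a metabotropic glutamate receptor, was higher by 0.93 ± 0.18 (adjusted p = 0.0281), lost without NestinCre EAE replicate 1, NestinCre EAE replicate 4, fl naive replicate 2 or fl naive replicate 3 (adjusted p = 0.0605 to 0.16). Phagocyte markers summed to 21.2 to 86.9 CPM in NestinCre EAE and 4.72 to 9.05 CPM in naive molecular layer interneurons, with 3 of 4 tested called higher. Neutrophil markers summed to 11.5 to 36.7 against 4.72 to 6.46 CPM there, with 2 of 2 tested called higher. Of all genes tested in this class 0.458% rose, and the part of these leukocyte markers was not tested. Purkinje cells had 3 calls of 6834 (0.0439%), of which Fgf13, a modulator of sodium channels, lay at 7.8, 5.67, 8.43 and 9.35 against 49.9, 36.1 and 32.8 CPM (log2 fold change -2.19 ± 0.38, adjusted p = 0.0358), lost without NestinCre EAE replicate 1, NestinCre EAE replicate 2, NestinCre EAE replicate 4, NestinCre naive replicate 2 or fl naive replicate 3 (adjusted p = 0.101 to 0.129). Unipolar brush cells had 2 of 4272 (0.0468%). Monoaminergic neurons had 0 calls by edgeR of 4347 genes (0.0%), with 199 at an unadjusted p under 0.05 and 1 call by DESeq2.

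C4b and Iigp1 were also among the calls of non-neuronal classes of few nuclei. Bergmann glia, the radial astrocytes of the cerebellum, had 11 higher (0.344%) and 3 lower (0.0939%) of 3194 genes. Their 14 calls became 4, 6, 9 and 0 without NestinCre EAE replicates 1 and 4, fl naive replicate 2 and fl naive replicate 3, and 26 without NestinCre EAE replicate 3. C4b lay at 485, 132, 212 and 42 CPM in the NestinCre EAE libraries and 0, 10.9 and 3.73 CPM in the naive libraries (log2 fold change 4.96 ± 0.80, adjusted p = 0.00577), lost without fl naive replicate 3 (adjusted p = 0.0857), and replicate 1 stood far above the others. Etv4, a transcription factor gene induced by FGF signalling, lay at 20.8, 109, 114 and 126 against 304, 359 and 362 CPM (log2 fold change -1.86 ± 0.32, adjusted p = 0.00577), lost without fl naive replicate 3 (adjusted p = 0.0857). Leptomeningeal cells or fibroblasts had 7 calls of 1640 (0.427%), all higher. Iigp1 lay there at 1536, 1486, 1673 and 275 against 48, 0 and 9.38 CPM (log2 fold change 6.01 ± 0.81, adjusted p = 0.00198), with replicate 4 the lowest NestinCre EAE library. None of these 7 calls (Iigp1, 2.65 ± 1.11, adjusted p = 0.723) and 1 of the 14 calls of Bergmann glia were called again with run as a term over 11 libraries. Border-associated macrophages, with 10 to 21 nuclei per library, had 33 calls of 689 (4.79%). Vcam1, an adhesion molecule for T cells, lay at 468, 504, 227 and 591 CPM in the NestinCre EAE libraries and 0, 59.5 and 91 CPM in the naive libraries (log2 fold change 3.22 ± 0.65, adjusted p = 0.00562), and Mctp1, a calcium-binding membrane protein, at 1064, 659, 1134 and 969 against 5524, 4612 and 4947 CPM (log2 fold change -2.41 ± 0.27, adjusted p = 1.71e-05). Neither gene overlapped between the groups, which was a condition for naming them.

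Gm42826, an unconfirmed transcript on chr3:125010564-125013202, was the 1 gene called lower in 8 classes, and was chosen after its values were seen. In mature oligodendrocytes it lay at 54.6, 57.2, 44.9 and 32.6 CPM in the NestinCre EAE libraries and 39.6, 359 and 409 CPM in the naive libraries (log2 fold change -2.46 ± 0.55, adjusted p = 0.0251), a call lost without NestinCre EAE replicate 1, NestinCre EAE replicate 2, NestinCre EAE replicate 3, NestinCre EAE replicate 4, NestinCre naive replicate 2 or fl naive replicate 3 (adjusted p = 0.0572 to 0.1). The naive libraries of run 3 were high, and fl naive replicate 2 of run 2 lay within the NestinCre EAE range. In the run 2 pair it differed by -0.28, and with run as a term the adjusted p was 0.673, so within run 2 it was near 0.

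The EAE libraries without Cre (fl EAE, 4 libraries) were set beside the NestinCre EAE libraries for genotype. NestinCre EAE was compared with fl EAE over these 8 libraries with run as a term, and since the same NestinCre EAE libraries enter both comparisons their calls are not independent. Genes higher in NestinCre EAE than in fl EAE numbered 303 of 7544 in microglia (4.02%), 178 of 12140 in mature oligodendrocytes (1.47%), 193 of 15724 in granule cells (1.23%) and 38 of 6426 in astrocytes (0.591%). Nlrc5 in microglia lay at 120.2 ± 106 CPM in fl EAE (SD, n = 4), a mean between those of the naive and the NestinCre EAE libraries (log2 fold change 2.01 ± 0.33, adjusted p = 0.00066). Il12rb1 in mature oligodendrocytes lay at 10.3 ± 3.11 CPM in fl EAE (log2 fold change 1.94 ± 0.29, adjusted p = 0.00528). Ccl12 in microglia lay at 144 ± 90.4 CPM and did not pass between the genotypes (log2 fold change 0.50 ± 0.30, adjusted p = 0.458).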

How the data were processed

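Nuclei were profiled by droplet single-nucleus RNA-seq, 1 library per file. The deposited values are whole-number UMI counts per gene and nucleus, which the authors made with Cell Ranger (version 7.0.0 in the file headers of run 1 and 6.0.2 in those of runs 2 and 3) against GRCm39, intronic reads included, so a version difference is part of the run difference. Of 25827 gene identifiers 25613 matched GENCODE vM39, from which coordinates and transcript starts were taken.

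Barcodes with at least 200 genes (run 1) or 500 genes (runs 2 and 3) and at most 5% mitochondrial UMIs were kept. Doublets were scored by simulation, with an assumed rate that grows with the number of barcodes. The highest-scoring nuclei and the 17 clusters with over 40% of such nuclei were removed. All 11 libraries were clustered together with scanpy 1.11.5 on 3000 variable genes and 40 components, aligned between libraries with Harmony, by Leiden at resolutions 2 and 6. A cluster was named only on at least 3 markers. Of the 97 clusters that remained 70 were named, in 20 classes.

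Counts were summed per library and class for classes with at least 10 nuclei in each library and tested with the edgeR 4.0.16 quasi-likelihood test (R 4.3.3, TMM, filterByExpr, Benjamini-Hochberg adjustment within a class, threshold 0.05), 4 NestinCre EAE against 3 naive libraries with no run term. CPM are counts per 1000000 UMIs of the class in a library. Differences within the run 2 pair used 0.5 CPM as offset. Alternatives were run as a term over 7 or 11 libraries, the same-genotype naive library alone, DESeq2 1.42.0, other normalization, filter, doublet and UMI limits (6000), and each library left out. Where naive libraries held no UMI, a fold is a lower limit from 3 counts over the group, and where they held 1 to 3, a ratio is given with its 95% counting interval. Intervals cover counting error only. The script was tested on simulated data.

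Genes were named by rule: the receptor and transgene genes, up to 4 called members of each list with the highest mean CPM, and up to 4 genes per direction and class with the largest change at 10 CPM or more. The text gives those on which a result turns, and genes named otherwise are marked as chosen after their values were seen. The comparison, the 23 lists (340 genes) and the markers were chosen with earlier results of these data known. The labels name each library as a separate sample, and p-values measure the spread between these samples. Replicates of a group differed by more than sampling noise. Some genes are not reported here.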

Additional observations from a re-analysis of the deposited data

Results flagged for a closer look

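For each gene named here the 4 NestinCre EAE libraries were searched for 1 library apart from the other 3, by the gap to the nearest library divided by the range of the group. Of 107 groups 7 (6.54%) were above Dixon's 95% critical value, and chance alone flags about 1 in 20. Cxcl10 in microglia (0.93) had replicate 3 high, at 146, 161, 595 and 178 CPM. Nlrc5 in granule cells (0.842) had replicate 1 high, at 47.5, 3.76, 10.7 and 6.74 CPM. Etv4 in Bergmann glia (0.837) had replicate 1 low, at 20.8, 109, 114 and 126 CPM. Iigp1 in leptomeningeal cells or fibroblasts (0.866) had replicate 4 low, at 1536, 1486, 1673 and 275 CPM. Myo18b in microglia (0.875) lay at 0, 7.91, 9.04 and 8.21 CPM, and Erbb4 in oligodendrocyte progenitors (0.849) at 4829, 3806, 3954 and 3798 CPM. H2-K1 in astrocytes (0.97) had replicate 4 high, at 68.6, 69.9, 73.8 and 239 CPM, and its call was lost without NestinCre EAE replicate 4 (adjusted p = 0.158). No single library was apart in all of them.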

How the results depend on the processing

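A run term and the omission of single libraries changed the counts of calls, most of them downwards, and the cause was not tested. Against the NestinCre naive library alone, with fewer samples, calls numbered 283 in microglia, 81 in mature oligodendrocytes, 42 in granule cells, 57 in astrocytes, 45 in oligodendrocyte progenitors, 11 in molecular layer interneurons, 5 in Bergmann glia and 64 in inhibitory neurons. With run as a term in the 7 libraries, where the contrast rests on the run 2 pair, they numbered 244 in microglia, 422 in mature oligodendrocytes, 66 in granule cells, 21 in astrocytes, 27 in oligodendrocyte progenitors, 8 in molecular layer interneurons, 0 in Bergmann glia and 6 in inhibitory neurons. Over 11 libraries they numbered 307, 645, 0, 37, 34, 9, 3 and 2 in microglia, mature oligodendrocytes, granule cells, astrocytes, oligodendrocyte progenitors, molecular layer interneurons, Bergmann glia and inhibitory neurons. The fit over 11 libraries also took its naive side from fl naive replicate 2 alone. DESeq2 called 664 genes in granule cells, 39 in oligodendrocyte progenitors, 110 in molecular layer interneurons and 46 in inhibitory neurons. With genes of at least 1 count tested, 912 were called in mature oligodendrocytes, 105 in astrocytes, 137 in oligodendrocyte progenitors, 452 in molecular layer interneurons, 92 in Bergmann glia and 103 in inhibitory neurons. With doublet clusters alone removed Bergmann glia had 8 calls, and without nuclei of 6000 or more UMIs inhibitory neurons had 1.

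Leaving out 1 library at a time gave 833 to 1189 calls in microglia, 303 to 589 in mature oligodendrocytes, 86 to 680 in granule cells, 31 to 54 in astrocytes, 39 to 70 in oligodendrocyte progenitors, 22 to 114 in molecular layer interneurons, 0 to 26 in Bergmann glia and 8 to 404 in inhibitory neurons. Differences of shares ranged from 0.660 to 1.09 percentage points for phagocytes, 0.364 to 0.807 for neutrophils, 0.273 to 0.481 for T or NK cells, -0.154 to -0.101 for newly formed oligodendrocytes, -0.188 to -0.107 for leptomeningeal cells or fibroblasts and 0.329 to 0.853 for microglia. The fit to nucleus counts, which can pass the threshold where the exact test cannot, gave log2 fold changes of 4.76, 3.84, 4.37, -2.50 and -1.06 for the first 5 of these. No called gene named here changed sign under any alternative that could be run.

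Replicate numbers were used as a block in 1 alternative. Correlations of the deviations of same-numbered libraries ran from -0.233 to 0.185 in 3 classes. Deviations within a group of so few libraries are tied to each other, so this check cannot show whether the numbers mark a pairing. With this replicate block 781 genes were called in microglia, 159 in mature oligodendrocytes, 181 in granule cells, 20 in astrocytes, 26 in molecular layer interneurons, 3 in Bergmann glia and 1 in inhibitory neurons. Depth limits the classes of few nuclei, in which most genes were not tested.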

Other observations

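Several gene groups outside the interferon lists held a few called members. In mature oligodendrocytes 2 of 12 tested immediate early genes, which respond to many stimuli within minutes, were higher, where 3.1% of all tested genes rose. Fos lay at 17, 14.9, 2.75 and 5.89 CPM in the NestinCre EAE libraries and 0.661, 3.04 and 1.6 CPM in the naive libraries (log2 fold change 2.62 ± 0.64, adjusted p = 0.0392), lost without NestinCre EAE replicate 1, NestinCre EAE replicate 2, NestinCre naive replicate 2, fl naive replicate 2 or fl naive replicate 3 (adjusted p = 0.0624 to 0.116), and Nr4a1, a nuclear receptor, at 19.9, 12.3, 4.27 and 6.77 against 2.25, 3.5 and 1.83 CPM (log2 fold change 2.10 ± 0.50, adjusted p = 0.0346), lost without NestinCre EAE replicate 1, NestinCre EAE replicate 2, NestinCre naive replicate 2, fl naive replicate 2 or fl naive replicate 3 (adjusted p = 0.0681 to 0.119). Of 11 tested heat shock genes Hsph1, a co-chaperone, was higher by 0.92 ± 0.12 (adjusted p = 0.00127). Against a share of 3.1%, counts this small say little about the immediate early and heat shock lists. Among chemokines 5 of 8 tested genes rose there, among them Cxcl10, with 30, 28, 36 and 28 UMIs and none in naive libraries, at least 37.6-fold higher.

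In microglia 9.03% of all tested genes rose and 5.05% fell. Of 7 tested complement genes C1qb (0.87 ± 0.17, adjusted p = 0.00121) and C4b (4.68 ± 0.40, adjusted p = 1.55e-07) were the 2 called. Slc1a3, the glutamate transporter GLAST, lay at 534, 367, 407 and 498 against 194, 199 and 241 CPM (log2 fold change 1.14 ± 0.17, adjusted p = 0.000108). In oligodendrocyte progenitors Htra1, a secreted protease of the glucocorticoid-responsive list, was higher by 1.98 ± 0.30 (adjusted p = 0.000113), and Cd200, which restrains myeloid cells, had -1.07 ± 0.28 (adjusted p = 0.0471), lost without NestinCre EAE replicate 1, NestinCre EAE replicate 2, NestinCre EAE replicate 3, NestinCre naive replicate 2 or fl naive replicate 3 (adjusted p = 0.0872 to 0.395).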
